A study of Mus musculus with 8 samples.

Results

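Forkhead (Fox) transcription factor genes were examined in DSB-seq data from mouse embryonic stem (ES) cells. The members were all autosomal genes that the GENCODE M1 annotation of genome build mm9 gives as protein-coding, with a symbol made of Fox, 1 lower-case letter and a number. This rule found 40 genes among 21418 autosomal protein-coding genes. It left out Foxo4, Foxp3 and Foxr2 on chromosome X, Foxl1 on chromosome 8, which this annotation gives as a pseudogene, and the lincRNA Foxl2os on chromosome 9. Foxf1 carries the symbol Foxf1a in this annotation.

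DSB-seq labels the ends of broken DNA with biotin in fixed nuclei, so that fragments near double-strand breaks (DSBs) can be captured and sequenced. The assay was run on established ES cells grown with serum and LIF, in 2 replicates of Chd1 KO (Chd1Δ/Δ, both alleles of the chromatin remodeler gene Chd1 deleted) and 2 of control (Chd1fl/Δ). The control is not wild type, although sample titles call it WT, since a Δ allele is present in both genotypes and the other allele is floxed in control. The authors combined the replicates of each genotype before they called peaks, so 1 list of peaks per genotype was analyzed, with 5671 peaks in Chd1 KO and 54 in control. No value below therefore has a replicate error or a test between genotypes, and the sources used here do not say whether each genotype was 1 clone. Lists of peaks hold no RNA levels, so neither the loss of Chd1 nor markers of ES cells could be checked. Totals of reads are not part of these lists, but the lowest local background at any peak was 3.18 extended reads in Chd1 KO and 2.95 in control. Fewer breaks in control and a less efficient capture of broken ends there cannot be told apart here.

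Forkhead proteins share a DNA-binding domain, the forkhead or winged helix, in which helix 3 reads the major groove. Members of the family set up germ layers and organs, among them the Foxa factors in endoderm and Foxl2 in the ovary. Others are used in most cell types, such as the Foxo factors downstream of insulin and Akt signaling and Foxm1 in cell division. In ES cells Foxd3 is a known regulator of the pluripotent state, and Foxh1 works with Smad proteins in Nodal signaling.

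The DNA under the forkhead peaks was mostly rich in G and C, and every one of the 28 peaks held at least 12 bp in a row of G and C alone, as did 94.1% of all Chd1 KO peaks. The longest such stretch is shown for 9 of the 10 peaks with the highest fold enrichment, to make this sequence visible. The middle of these stretches lay between 9 bp (Foxd2) and 132 bp (Foxp1) from the summit of the peak. At Foxn3 that distance was 96 bp, and the 201 bp around the summit had a GC content of 49.3%. Sequences run 5′ to 3′ on the strand of the gene in mm9, and capitals mark the stretch of G and C. Part names are those of the peak summit, and the stretch itself can lie in another part. For Foxm1, whose stretch lies in an untranslated region, only the stretch is shown. The stretch of Foxk1 lies just upstream of the gene, with flanks that would enter an untranslated region. It is likewise shown alone, cut to 30 of its 34 bp.
Foxn3, intron peak, chr12:100546219-100546279, minus strand: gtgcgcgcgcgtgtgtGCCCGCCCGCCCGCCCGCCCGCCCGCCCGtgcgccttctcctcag
Foxj3, intron peak, chr4:119212656-119212716, plus strand: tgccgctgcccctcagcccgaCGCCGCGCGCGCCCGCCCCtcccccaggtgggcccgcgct
Foxm1, 5' UTR peak, chr6:128313084-128313102, plus strand: CCCGCCGCCCGGGCCCGGC
Foxj2, upstream peak, chr6:122769837-122769897, plus strand: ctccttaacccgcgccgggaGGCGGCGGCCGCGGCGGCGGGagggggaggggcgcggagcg
Foxp1, 5' UTR peak, chr6:98978365-98978425, minus strand: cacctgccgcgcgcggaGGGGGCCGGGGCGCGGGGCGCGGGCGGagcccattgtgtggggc
Foxd2, coding exon peak, chr4:114581130-114581190, minus strand: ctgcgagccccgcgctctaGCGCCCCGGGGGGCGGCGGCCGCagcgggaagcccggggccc
Foxo6, coding exon peak, chr4:119940912-119940972, minus strand: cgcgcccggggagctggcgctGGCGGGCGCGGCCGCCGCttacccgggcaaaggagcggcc
Foxd3, coding exon peak, chr4:99324489-99324549, plus strand: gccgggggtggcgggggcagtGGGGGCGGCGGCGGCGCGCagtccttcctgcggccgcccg
Foxk1, coding exon peak, chr5:142877408-142877437, plus strand: CCGCGCGCGCCGCCCCGCCCCGCCCCGCGC

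Of these 9 stretches, those of Foxj2, Foxp1, Foxd2, Foxo6 and Foxd3 had more G than C on the strand shown. The stretch of Foxp1 had 20 G and 7 C. Stretches of Foxn3, Foxj3, Foxm1 and Foxk1 had more C than G, and in Foxn3 the unit GCCC was repeated, with 21 C and 8 G. Both orientations were thus present among the strongest peaks.

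In Chd1 KO cells, 21 of the 40 forkhead genes had a DSB-seq summit within 1 kb of an annotated TSS (52.5%, Wilson 95% interval 37.5 to 67.1%). A summit is the base of a peak with the most reads. Among all autosomal protein-coding genes, 3553 of 21418 had one, which is 16.6%. A summit lay between the annotated start and end of 17 forkhead genes (42.5%, 28.5 to 57.8%), against 15.9% of all genes. In 13 of these 17 the same summit was also the one near a TSS, and 5 had a summit in the body more than 1 kb from each TSS (12.5% against 4.31% of all genes). Either kind was present in 25 members (62.5%, against 19.6% of all genes) and neither in 15. These intervals cover counting error only.

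In control cells, 0 of the 40 forkhead genes had a summit within 1 kb of a TSS or in the gene body, and a count of 0 allows a share of up to 7.50%. The control list put a summit in the body of 7 genes in all, or 0.0327%, and within 1 kb of a TSS of 0 genes. With so few genes in the control list, a count of 0 says little about forkhead genes in particular. The control summit nearest to any forkhead TSS lay 715 kb away, from Foxi3, among the 34 members on a chromosome with a control peak. Of the 28 Chd1 KO peaks at forkhead genes, 0 overlapped a control peak, where 0.864% of all Chd1 KO peaks did.

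The fold enrichment, which compares reads at a summit with the local background of the same pooled Chd1 KO reads, ran from 3.09 at Foxf1a to 6.22 at Foxn3 (median 4.47, n = 28 peaks). For all 5671 Chd1 KO peaks the median was 4.56. The reads at the summit, recovered from the fold enrichment and p-value, ran from 14 to 35 with a median of 22.0, and the lowest count in the whole list was 13. Forkhead peaks were therefore of ordinary height, and each rests on a small number of reads.

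**Figure D1:**
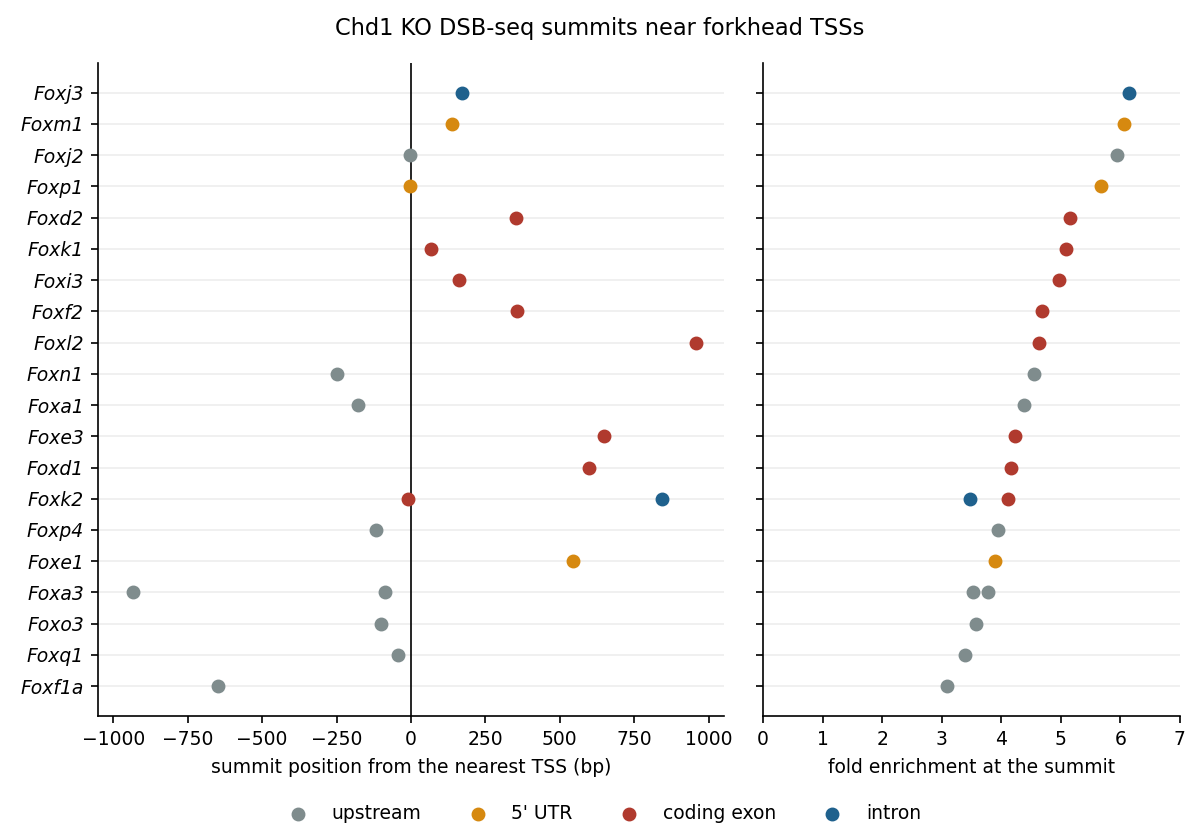
Position of each Chd1 KO summit within 1 kb of a forkhead TSS (left, in bp from the nearest annotated TSS, negative upstream) and its fold enrichment (right). Each of the 22 points plotted, of 23 such summits, is 1 peak of the combined replicates, colored by the part of the gene it lies in, and genes are ordered by their highest fold enrichment. Positions run from -934 bp at Foxa3 to 958 bp at Foxl2, and the fold enrichment from 3.09 to 6.14.

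The 3 strongest forkhead peaks near a TSS belonged to Foxm1, Foxj2 and Foxj3, genes used by dividing cells or by most cell types. Foxm1, which drives genes of G2 and mitosis, had the most reads of all members, 35, at a summit 138 bp downstream of the TSS in the 5′ UTR (chr6:128312694-128313320, fold enrichment 6.06, −log10 q 13.8). Its TSS region is shared, since a TSS of 5930416I19Rik lies 194 bp from the same summit. Foxj3 had a fold enrichment of 6.14 from 27 reads at a summit 173 bp downstream of a TSS, in an intron (chr4:119212321-119212914, −log10 q 11.0). Foxj2 had 32 reads at a summit 3 bp upstream of its TSS (chr6:122769656-122770125, fold enrichment 5.94, −log10 q 12.4). Their −log10 q values were the 3 highest of the family.

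Foxk1 and Foxk2, paralogs with a forkhead-associated domain beside the forkhead, both had peaks. The summit of Foxk1 lay 68 bp downstream of a TSS in the first coding exon (chr5:142877284-142877762, fold enrichment 5.09, 27 reads). Foxk2 had a summit in a coding exon 9 bp upstream of an internal TSS and 4.63 kb downstream of the outermost one (chr11:121121290-121121798, fold enrichment 4.12, 21 reads). The second Foxk2 summit was the weakest of all by reads, 14, in an intron 843 bp downstream of another internal TSS and 43.9 kb from the outermost one (chr11:121160612-121160811, fold enrichment 3.47, −log10 q 2.41). Thus Foxk2 counts as having a summit near a TSS only through internal start sites.

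The same held for Foxp1, a factor of lymphocyte and brain development with an ES cell-specific splice form. Its summit lay 3 bp upstream of an internal TSS, in the 5′ UTR of a longer transcript, and 238 kb from the outermost TSS (chr6:98978076-98978507, fold enrichment 5.67, 26 reads). Foxp4 had a summit 119 bp upstream (chr17:48061352-48061801, fold enrichment 3.94, 21 reads). Foxp2, known for its role in vocal learning and speech, had none, and its nearest summit was 1223 kb from any of its 15 annotated TSSs.

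The Foxo genes, targets of PI3K and Akt signaling, differed among themselves. Foxo3 had a summit 100 bp upstream of its outermost TSS (chr10:41996576-41996775, fold enrichment 3.57, 21 reads). Foxo6 had one only in the body, in a coding exon 18.9 kb from the TSS (chr4:119940921-119941251, fold enrichment 5.15, 26 reads). Foxo1 had neither, with the nearest summit 71.8 kb away, although its promoter GC content of 66.1% was above the 64.3% of Foxo3.

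Of the members tied to the pluripotent state or to Nodal signaling, Foxd3 had a summit 1447 bp downstream of its TSS, outside the 1 kb limit, in its coding exon (chr4:99324180-99324617, fold enrichment 5.12, 25 reads). A miRNA annotated as BX005053.1 starts 4 bp from this summit. Foxh1 had no summit, the nearest being 13.2 kb away. Of the Foxn genes listed as broadly expressed, Foxn3 had the highest fold enrichment of the family, 6.22 from 25 reads, in an intron 85662 bp from its nearest TSS (chr12:100546025-100546542), and this peak also held a CA repeat of 43 bp. Foxn2 had none, and its nearest summit was 66.1 kb away.

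Among genes of endoderm, Foxa1 and Foxa3, pioneer factors that open chromatin in foregut and liver, had summits near the TSS and Foxa2 did not. The summit of Foxa1 was 179 bp upstream (chr12:58647114-58647357, fold enrichment 4.38, 20 reads), and the 201 bp around it had a GC content of 48.8%, the second lowest of the 28 peaks after 45.3% at the intronic Foxk2 peak. Foxa3 had a pair of summits, 86 bp upstream (chr7:19608892-19609098, fold enrichment 3.78, 20 reads) and 934 bp upstream (chr7:19609791-19609990, fold enrichment 3.53, 19 reads). The farther one lay 40 bp from a TSS of Sympk.

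Genes of mesoderm and its organs carried summits both before the TSS and in the coding exon. Foxf1a, needed for lung and gut mesenchyme, had the weakest peak of the family by fold enrichment, 3.09 from 20 reads, 648 bp upstream (chr8:123607544-123607762). Its paralog Foxf2 had a summit 355 bp downstream in coding sequence (chr13:31717868-31718175, fold enrichment 4.68, 21 reads). Foxd1, a marker of kidney stroma, had one at 597 bp (chr13:99124662-99124988, fold enrichment 4.17, 23 reads), and Foxd2 at 352 bp (chr4:114581025-114581350, fold enrichment 5.15, 27 reads), both in coding sequence. Foxl2, which maintains ovarian granulosa cells, had the farthest downstream summit inside the limit, 958 bp (chr9:98856868-98857144, fold enrichment 4.63, 24 reads). Foxc2, needed for lymphatic vessels, fell outside it at 1590 bp (chr8:123641362-123641794, fold enrichment 3.96, 23 reads), and its paralog Foxc1 had none, the nearest summit being 4.91 kb away.

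In genes of the sense organs, glands and skin, summits lay on both sides of the TSS. Foxi3, which acts in teeth, hair and the ear, had one in coding sequence at 161 bp (chr6:70906616-70906955, fold enrichment 4.98, 22 reads), and Foxe3, a lens factor, at 649 bp (chr4:114597913-114598112, fold enrichment 4.23, 20 reads). Foxe1, the thyroid forkhead factor, was the only member with a summit on each side of the 1 kb limit, 545 bp downstream in the 5′ UTR (chr4:46356955-46357178, fold enrichment 3.89, 18 reads) and 1432 bp downstream in coding sequence (chr4:46357738-46357951, fold enrichment 3.74, 18 reads). Summits of Foxn1, the factor of thymic epithelium, and Foxq1, whose loss gives mice satin fur, lay upstream. They were at 250 bp (chr11:78200190-78200491, fold enrichment 4.56, 22 reads) and 45 bp (chr13:31649834-31650136, fold enrichment 3.40, 17 reads) before the TSS.

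Across the family, 23 peaks made up the 21 genes with a summit near a TSS, and 12 of the 23 summits lay downstream of the nearest TSS (52.2%, 33.0 to 70.8%). For all genes this was 60.8% of 3871 pairs of a gene and a summit. Coding exons held 8 of the 23 (34.8%, 18.8 to 55.1%) against 14.4% of all pairs, introns 2 (8.70%, 2.42 to 26.8%) against 28.6%, and the 5′ UTR 3 of 23 (interval 4.54 to 32.1%) against 30.1%. Sequence before the gene held 9 (39.1%) against 25.6%. Summits more than 300 bp downstream of the TSS numbered 8 (34.8%) against 18.2%. The coding exon share of all pairs lay below the forkhead interval and the intron share above it, the 5′ UTR share lay within its interval, and these differences were not tested. Of the 40 members, 11 had 1 annotated exon and hence no intron, and whether this bears on the intron share was not tested.

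Beyond the limit of 1 kb, 5 members had a summit in the body, and 4 of these (Foxc2, Foxd3, Foxn3 and Foxo6) had no other. Such summits were in coding sequence in all but Foxn3. The summits nearest to the limit were those of Foxa3 at -934 bp and Foxl2 at 958 bp inside, and Foxe1 at 1432 bp and Foxd3 at 1447 bp outside. A TSS of another gene lay within 1 kb of 10 of the 28 summits, so these peaks cannot be assigned to the forkhead gene alone.

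Coding summits were then placed, in a comparison added after the data were seen, against the forkhead domain, located as a segment of 100 codons from the conserved residues of helix 1 and helix 3. This segment was found in 37 of the 40 members, all but Foxb1, Foxb2 and Foxr1. In the 12 members with a summit in coding sequence, 6 summits lay before the segment (Foxd1, Foxd2, Foxf2, Foxi3, Foxk1 and Foxk2), 6 after it (Foxc2, Foxd3, Foxe1, Foxe3, Foxl2 and Foxo6) and 0 within it. The segment made up a median of 21.6% of the codons of these genes (12.4 to 34.7%). The nearest were Foxd2, 37 codons before the first codon of the segment, and Foxe3, 140 codons after that first codon. Peaks are wider than their summits, and those of Foxd1 and Foxd2 also held 27 and 18 bases of the segment. The Foxk2 summit lies 9 bp upstream of an internal TSS, so it is coding only in transcripts that start before that TSS. All 12 summits were thus outside the segment, which holds a minor part of the codons. Whether 0 of 12 is fewer than this share of codons would give was not tested. Coding summits of other genes were not placed against a domain in this way.

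**Figure D2:**
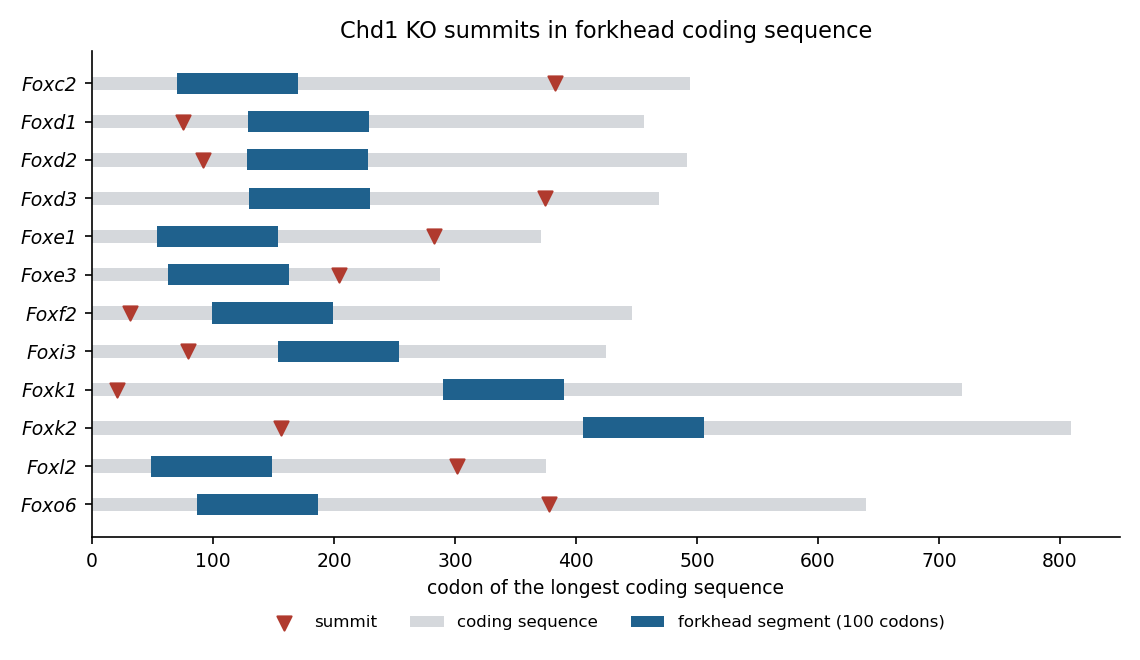
Coding sequence of the 12 forkhead genes with a Chd1 KO summit in a coding exon, drawn to scale in codons of the longest annotated coding sequence. Blue boxes are the 100 codons of the forkhead segment and triangles are summits. All 12 triangles lie outside the blue boxes, 6 before and 6 after.

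The base composition differed between the forkhead segment and the rest of the coding sequence. In the 12 genes the GC content of the forkhead segment had a median of 61.9% (47.7 to 65.0%) and that of the rest of the coding sequence 74.0% (64.7 to 78.1%). It was lower in the segment in each of the 12, and in each of the 37 members where the segment was found. Codons that begin with GC, GG or CC, which encode alanine, glycine and proline, made up a median of 19.0% of the segment and 45.2% of the rest. In up to 67 codons around each summit they made up a median of 59.7%, from 43.8% in Foxf2 to 71.6% in Foxl2. Fewer codons were taken at Foxf2 and Foxk1, whose summits lie near the first codon. Codons of alanine, glycine and proline are rich in G and C by definition. Summits of all Chd1 KO peaks had a median GC content of 75.1%, and coding summits of other genes were not measured for these codons. The coding summits of forkhead genes thus lay in GC-rich coding sequence outside the domain that names the family.

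Promoter GC content, measured within 1 kb of the outermost TSS, had a median of 60.0% in the 40 forkhead genes and 51.3% in all genes. Members with a summit near a TSS had a median of 60.9% (44.5 to 70.1%, n = 21) and those without 57.3% (47.7 to 66.8%, n = 19), so the ranges overlapped widely. The highest GC content of any 200 bp of the promoter had medians of 81.5% and 74.0%, and the observed over expected CpG ratio 0.793 and 0.623. Within members shorter than 10 kb the medians of promoter GC content were further apart, 63.8% in 11 genes with a summit and 55.7% in 13 without. Of the 16 members of 10 kb or more, 10 had a summit near a TSS. Their promoter GC contents were 44.5, 49.6, 56.4, 57.7, 58.4, 60.0, 60.0, 63.6, 64.3 and 67.6%. Those without were Foxn3 (47.7%), Foxp2 (55.7%), Foxn4 (62.2%), Foxn2 (65.0%), Foxo1 (66.1%) and Foxo6 (66.8%). In these longer members promoter GC content was thus not higher with a summit. For all genes the medians of promoter GC content were 58.6% with and 49.9% without.

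**Figure D3:**
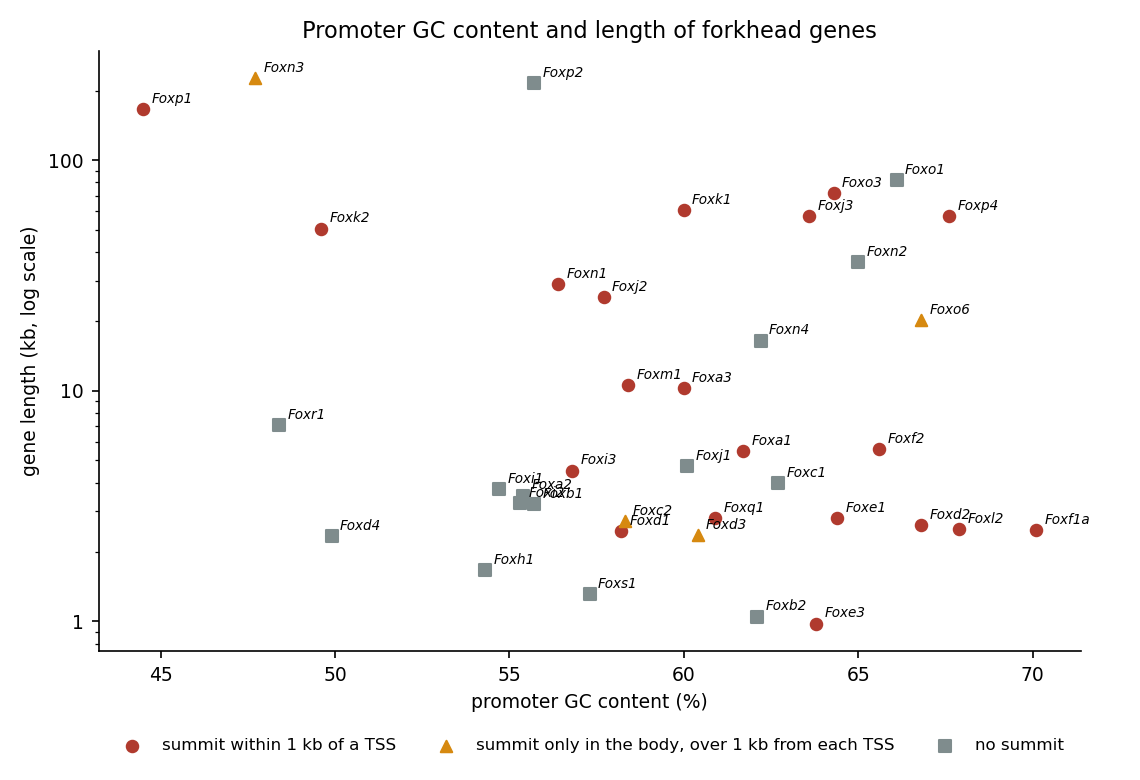
Promoter GC content in percent and gene length in kb on a log scale for 39 of the 40 forkhead genes, with circles for genes with a Chd1 KO summit within 1 kb of a TSS, triangles for a summit only farther inside the gene, and squares for none. Circles spread from Foxp1 at 44.5% to Foxf1a at 70.1% and from Foxe3 at 0.977 kb to Foxp1 at 167 kb, among squares of similar values.

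Both very GC-rich and GC-poor members lacked a summit. The 5 members with the highest promoter GC content and no summit of either kind were Foxo1 (66.1%, 81.8 kb long), Foxn2 (65.0%, 36.1 kb), Foxc1 (62.7%, 3.99 kb), Foxn4 (62.2%, 16.5 kb) and Foxb2 (62.1%, 1.05 kb). The 5 with the lowest were Foxr1 (48.4%, 7.07 kb), Foxd4 (49.9%, 2.35 kb), Foxh1 (54.3%, 1.67 kb), Foxi1 (54.7%, 3.75 kb) and Foxi2 (55.3%, 3.25 kb). The other 5 without a summit were Foxa2, Foxb1, Foxj1, Foxp2 and Foxs1, at 55.4 to 60.1%. Across these 15 genes the nearest summit lay between 4.91 and 1223 kb from a TSS, with a median of 98.1 kb. Conversely Foxp1 (44.5%) and Foxk2 (49.6%) had summits at internal TSSs, where the 201 bp around the summit had a GC content of 79.6% at Foxp1 and of 87.1% and 45.3% at Foxk2. The value at the outermost TSS does not describe those sites.

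Among all other genes the share with a summit was higher at higher promoter GC content, from 2.03% at 40 to 45% GC to 94.1% at 70 to 75%. Forkhead genes were spread over bins from 40 to 75% GC. The bin from 55 to 60% held 11 members, of which 5 had a summit, against 29.7% of other genes, and the bin from 60 to 65% held 13, of which 8 had one, against 55.9%. In the bin from 65 to 70%, 4 of 7 had one against 74.4%. Weighting the other genes by the bins of the members gave a share of 43.1%, or 17.2 genes of 40. The observed 52.5% with its interval of 37.5 to 67.1% includes that value, whereas 16.6% over all genes lies below the interval. With GC content taken within 500 bp of the TSS the weighted share was 35.9%, which also lies below it.

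**Figure D4:**
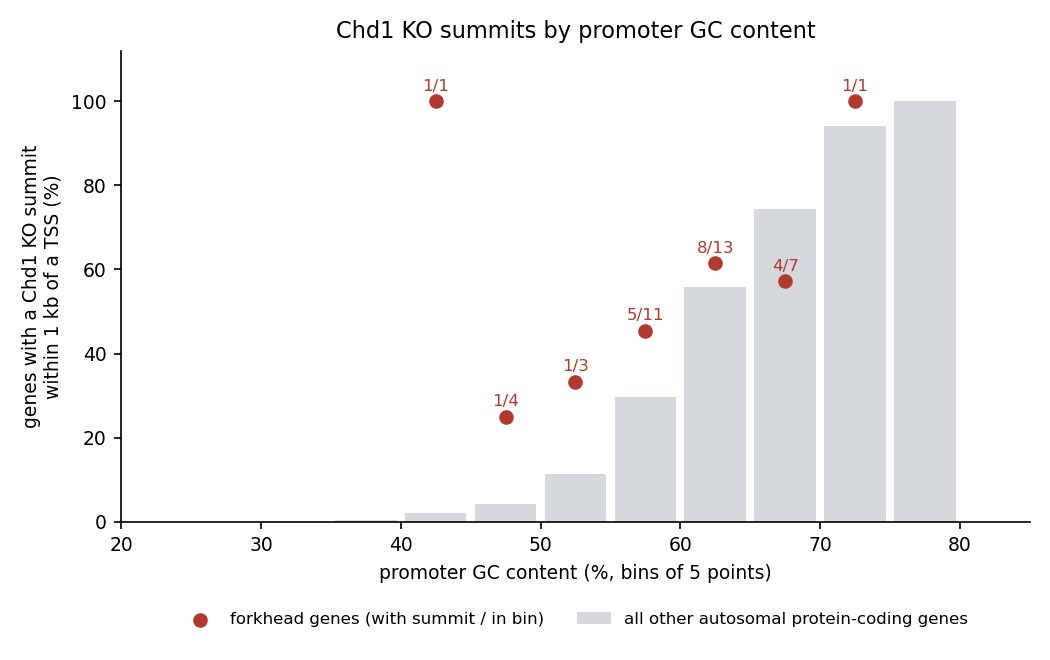
Share of genes with a Chd1 KO summit within 1 kb of a TSS, in percent, by promoter GC content in bins of 5 percentage points. Gray bars are all other autosomal protein-coding genes and red points the forkhead genes, with the count with a summit over the count in the bin. In the bins with 11 and 13 members, 5 and 8 had a summit, above the bars of 29.7% and 55.9%, and in the bin with 7 members the 4 with a summit lay below the bar of 74.4%.

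Forkhead genes were short, with a median length of 4.60 kb against 13.3 kb for all genes. Members with a summit near a TSS had a median of 5.59 kb and those without 3.75 kb. This order turned in the 25 members with 1 annotated TSS, where the medians were 2.80 kb with and 3.24 kb without, so no direction holds for length. Among all genes the medians were 33.1 kb with and 10.9 kb without. By size, 11 of 24 members under 10 kb had a summit near a TSS (45.8%, 27.9 to 64.9%) and 10 of 16 of 10 kb or more (62.5%, 38.6 to 81.5%). The intervals overlap. Across the 21 members with a summit, which share 1 list of peaks from pooled replicates, the highest fold enrichment and promoter GC content had a Spearman rho of -0.368 and a Pearson r of -0.395, and fold enrichment and log10 length 0.287 and 0.303.

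Sequence motifs were counted in the peaks on both strands. The letters GGGCGG, part of the site known for Sp and Klf factors, were in 24 of the 28 forkhead peaks (85.7%, 68.5 to 94.3%) and in 76.1% of all Chd1 KO peaks. A G-quadruplex motif, 4 runs of at least 3 G with loops of 1 to 7 bases, was in 17 (60.7%, 42.4 to 76.4%) against 60.9%. Runs of 20 bp or more of G and C alone were in 13 (46.4%, 29.5 to 64.2%) against 53.5%. Of the 28 forkhead peaks, 23 lay near a TSS. Among all Chd1 KO peaks near a TSS, GGGCGG was in 90.5%, the G-quadruplex motif in 63.1% and such runs in 51.1%. These patterns can overlap each other, and the forkhead peaks, with a median width of 326 bp against 299 bp, held each at a share whose interval includes that of all peaks. In the promoters, within 1 kb of the outermost TSS, a run of 20 bp or more was in 40.0% of members and 16.6% of all genes, the G-quadruplex motif in 77.5% and 55.3%, and GGGCGG in 92.5% and 66.3%. GGGCGG was in the promoters of 19 of 21 members with a summit and 18 of 19 without, and the G-quadruplex motif in 16 of 21 and 15 of 19. The run of 20 bp or more was in 10 of 21 (47.6%) and 6 of 19 (31.6%), a difference that was not tested. The GC content of the 201 bp around the summit had a median of 78.8% over the 28 forkhead peaks and 75.1% over all peaks, and of 76.6% and 78.1% over those near a TSS alone.

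By the 19 letter groups of the family, every member had a summit near a TSS in 7 groups, among them Foxe, Foxf and Foxk with 2 members each. The rest of these 7 groups hold 1 member each. In 5 groups (Foxb, Foxc, Foxh, Foxr and Foxs) 0 members had one, and Foxh, Foxr and Foxs hold 1 member each. The other groups were mixed, with 2 of 3 in Foxa, 2 of 4 in Foxd, 1 of 3 in Foxi, 2 of 3 in Foxj, 1 of 4 in Foxn, 1 of 3 in Foxo and 2 of 3 in Foxp. Neighboring members were mixed too. On chromosome 8, Foxf1a had a summit near its TSS and Foxc2, 31.8 kb away, only within its body. On chromosome 13, Foxq1 and Foxf2, 67.6 kb apart, both had one and Foxc1, 181 kb from Foxf2, had none. Foxd2 and Foxe3, 17.2 kb apart on chromosome 4, both had one.

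Expression was not measured in these lists, so members were also grouped by what is known of their use. Of 13 forkhead genes known to be used in ES cells or in most tissues, 8 had a summit near a TSS (61.5%, 35.5 to 82.3%), against 40.7% of other genes in the same GC bins. Of the other 27, 13 had one (48.1%, 30.7 to 66.0%), against 44.2%. Genes known for a single lineage, such as Foxe1 or Foxl2, thus carried summits in Chd1 KO ES cells as well, and the shares of both groups have overlapping intervals. Of the 11 members with 1 exon, 6 had a summit near a TSS (54.5%, 28.0 to 78.7%), and of the 29 with more, 15 (51.7%, 34.4 to 68.6%).

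Of 11 genes for partners and regulators of forkhead factors, 8 had a summit near a TSS (72.7%, 43.4 to 90.3%). In the same GC bins, 45.3% of genes outside the forkhead family, these 11 among them, had one, a value within the interval. The 8 with a summit included the Foxh1 partners Smad2, Smad3 and Smad4. Of the regulators of Foxo factors, they included the kinase Akt1, the deacetylase Sirt1 and the 14-3-3 protein gene Ywhaz. The kinases Akt2 and Sgk1 and the exportin Xpo1 had none near a TSS. A summit near a TSS or in the body was present in 9 of the 11 genes (81.8%, against 19.6% of all genes). Control summits were near or in 0 of these 11. Among other families of developmental transcription factors, 12 of 44 Sox, Tbx, Pax and Gata genes (27.3%, 16.3 to 41.8%) and 11 of 40 Hox cluster genes (27.5%, 16.1 to 42.8%) had a summit near a TSS, with 30.6% and 23.9% at their GC content. These counts are of annotated gene entries, in which Sox4 and Hoxa3 each stand for a pair, so they hold 43 and 39 distinct symbols. Klf genes had one in 11 of 16 (68.8%, 44.4 to 85.8%), against 43.1%. The forkhead share of 52.5% was above the point shares of Sox, Tbx, Pax, Gata and Hox genes and below that of Klf genes, with intervals that overlap in each case, and these differences were not tested.

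**Figure D5:**
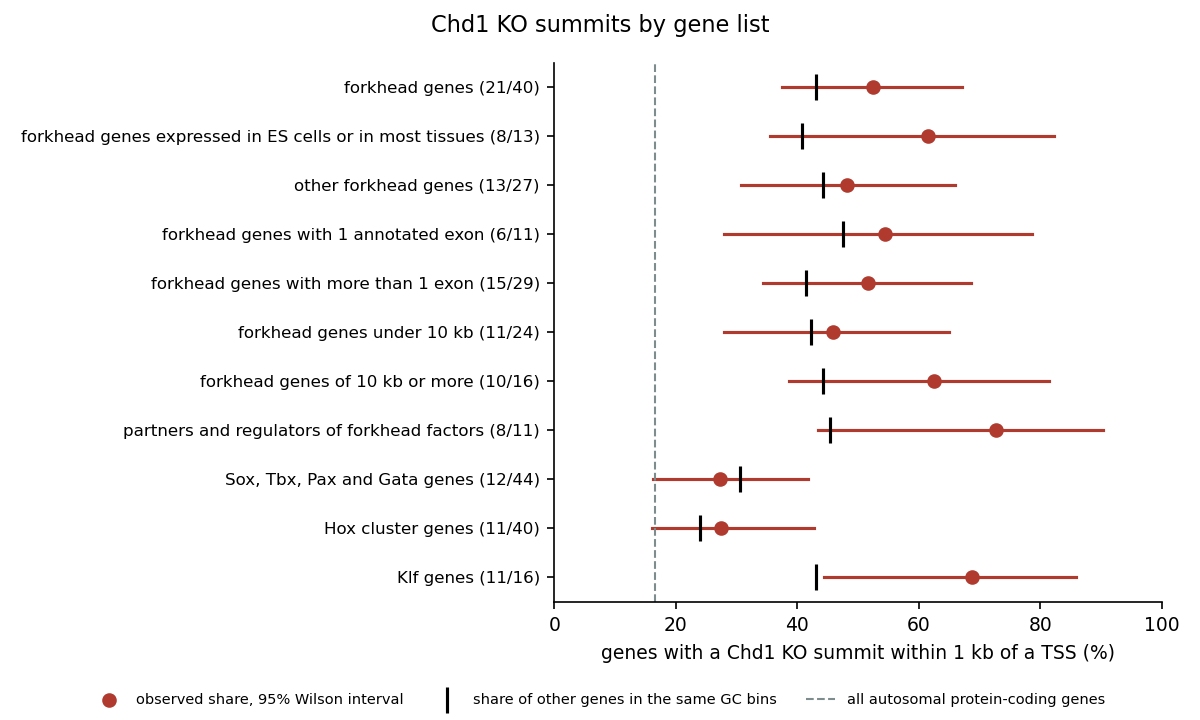
Share of genes with a Chd1 KO summit within 1 kb of a TSS, in percent, for the forkhead genes, subsets of them, their partners and regulators, and other families. Points are observed shares with Wilson 95% intervals (counting error only), upright ticks the share of genes outside the forkhead family in the same GC bins, and the dashed line the 16.6% of all autosomal protein-coding genes. Forkhead genes sit at 52.5% with a tick at 43.1%, and Hox genes at 27.5% with a tick at 23.9%.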

How the data were processed

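DSB-seq was carried out on 2 replicates of Chd1 KO and 2 of control ES cells. The authors mapped reads to mm9 with Bowtie2, dropped reads with a mapping quality under 13 and repeated reads at a position, pooled both replicates of a genotype and ran MACS2 (q-value cutoff 0.05, reads extended to 200 bp), then removed blacklisted regions. Tool names follow the submitters' processing notes and the methods of the study. The deposited fold enrichment is a ratio of reads to local background within the pooled reads of a genotype, and −log10 of the p-value and q-value were likewise deposited by the authors. The deposited score is a rounded multiple of the −log10 q-value and gave no result. The ChIP-seq samples were not used here.

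Members and lists were chosen with earlier results of these data known. TSSs, genes and coding sequence came from GENCODE M1. All members may be named, but some genes of the lists are not reported here. Full values were given for members with a summit, and GC content and length for the 5 highest and 5 lowest in GC content without one. Promoter GC content was taken within 1 kb of the outermost TSS, and gene length was the mean over protein-coding transcripts. A part of a gene was assigned from all its transcripts. Reads at a summit were recovered from fold enrichment and p-value. Counting functions were tested on simulated data. Wilson 95% intervals, and 3 counts for a count of 0, cover counting error only. Alternatives changed the position of a peak, the window, the TSSs, the thresholds, the definitions of GC content and length, and the GC bins. Python 3.11.15, NumPy 2.4.6, SciPy 1.17.1, pandas 2.3.3, pysam 0.24.0, samtools 1.23.1 and Matplotlib 3.10.9 were used.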

Additional observations from a re-analysis of the deposited data

How the results depend on the processing

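The count of 21 forkhead genes with a Chd1 KO summit near a TSS ran from 15 to 23 under 9 of the 10 alternatives, and was 13 (32.5% against 10.8% of all genes) from 1 kb upstream to 100 bp downstream of the TSS by the peak's midpoint. That window leaves out 8 genes whose peaks lie farther downstream. It was 15 within 500 bp (37.5% against 15.3%) and at a fold enrichment of at least 4. The count in gene bodies was 5, not 17, when only sites more than 1 kb from each TSS were taken (12.5% against 4.31%). Of the 210 values for single genes, 186 kept a summit and 24 lost it. The difference in median promoter GC content, 3.60 points, was 5.79 within 500 bp, 4.81 from 1 kb upstream to 100 bp downstream and 3.90 in genes with 1 TSS. The log2 ratio of median lengths, 0.575, was 0.486 with the span of the gene and turned to -0.209 in genes with 1 TSS. The share at the GC content of the members, 43.1%, was 39.2% with bins of 10 points, 35.9% with GC content within 500 bp (below the interval of the observed share) and 38.4% in genes with 1 TSS, where 11 of 25 had a summit (44.0%, 26.7 to 62.9%). Summits in the forkhead segment stayed at 0 of 12 with 90 or 110 codons or the midpoint, and both this result and its alternatives were chosen after seeing the data. The share of downstream summits ran from 50.0 to 68.2%, and the count of control summits stayed at 0 within 10 kb of the genes. No paired analysis was possible because each genotype has 1 list from pooled replicates, so leaving out a replicate was not possible either. The weakest Chd1 KO peak had 13 reads, and sites below the threshold lie outside these lists.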

Other observations

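Of the Fox symbols outside the 40 members, 0 of 5 (Foxl1, Foxl2os, Foxo4, Foxp3 and Foxr2) had a Chd1 KO or control summit within 1 kb of a TSS or in the gene body.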
